A study of Mus musculus with 2 samples.

Results

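The miR-99/100 and miR-125 families were followed through 6 hairpins, Mir99a, Mir99b, Mir100, Mir125a, Mir125b-1 and Mir125b-2, of the 2202 hairpins counted. They were chosen by their GENCODE M21 symbols, as the microRNAs of the clusters that pair a miR-99/100 hairpin with a miR-125 hairpin, and the rule uses no measured value. All 6 had at least 10 counts in both libraries, as did 288 hairpins in all. The libraries are microRNA-seq, which counts short RNA fragments, from heart tissue of 2 female B6CASTF1/J mice aged 25 days, labelled as biological replicates 2 and 1 of the same group. B6CASTF1/J animals are first-generation hybrids of C57BL/6J and the wild-derived strain CAST/EiJ. The descriptions number the animals separately, while both samples carry the same donor identifier, so the spread between the libraries may be partly technical. A free-text label gives the age of 25 in months where the others give days. There is no second group, so levels are described and the only comparison is between the libraries.

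A microRNA is cut from a folded hairpin precursor and pairs with messenger RNAs mainly through its seed, bases 2 to 8 from its 5′ end. The miR-99/100 family is known for repressing mTOR, a kinase that drives cell growth. The miR-125 family comprises the mammalian relatives of lin-4, the developmental timing microRNA of Caenorhabditis elegans. In animals from flies to mammals, genes of both families lie next to a let-7 gene. In the fly, miR-100, let-7 and miR-125 are made from a single transcript.

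The mature sequences of the 5p arm, taken from RefSeq on GRCm38.p6, are shown because they define the families and decide which reads can be assigned to a locus. All 6 hairpins had a mature entry. Capitals mark the seed.
miR-99a-5p: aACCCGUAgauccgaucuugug
miR-100-5p: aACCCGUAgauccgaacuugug
miR-99b-5p: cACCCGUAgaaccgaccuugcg
miR-125a-5p: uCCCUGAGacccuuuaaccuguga
miR-125b-5p: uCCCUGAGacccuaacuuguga

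The seed was the same in all 3 members of each family and differed between the families. Counting positions from the 5′ end, miR-99a-5p and miR-100-5p differed by the single substitution U16A. From miR-99a-5p to miR-99b-5p there were 4 substitutions, A1C, U11A, U16C and U21C, all outside the seed. Mir125b-1 and Mir125b-2 give the same 22-base miR-125b-5p, while miR-125a-5p has 24 bases and was identical to it at 15 of the first 22 positions. No other counted hairpin held the whole 5p sequence of Mir99a, Mir99b, Mir100 or Mir125a.

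The identity of the miR-125b loci reached beyond the mature microRNA. In the Mir125b-1 hairpin below, capitals mark the 24 bases it shares with the Mir125b-2 hairpin, which are miR-125b-5p and the 2 bases before it. The 3p arms of these loci are different, and neither was found in another hairpin.
Mir125b-1: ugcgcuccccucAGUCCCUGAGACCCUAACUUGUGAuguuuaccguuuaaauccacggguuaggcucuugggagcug
miR-125b-1-3p: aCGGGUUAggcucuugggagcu
miR-125b-2-3p: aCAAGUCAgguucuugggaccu

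Each table has a separate row for reads that match several places, apart from the counts per hairpin. A read of miR-125b-5p fits both loci. That such reads went to that row is inferred from the layout, since the counting program is not named, and the counts of Mir125b-1 and Mir125b-2 cannot show how abundant miR-125b was. Reads matching several places numbered 2686901 in replicate 2 and 1925044 in replicate 1, against 2661090 and 2050498 reads counted on hairpins. How many of them are miR-125b cannot be read from these tables, which also do not separate the arms of a hairpin.

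All hairpins of the clusters lie on the plus strand in the order miR-99/100, let-7, miR-125. Mir99a (ENSMUSG00000065530.1, chr16:77598936-77599000 on mm10) lies in an intron of the long noncoding host gene Mir99ahg, as does Mir125b-2 (ENSMUSG00000065472.1, chr16:77646273-77646343), which also overlaps an exon of C130023A14Rik. Their let-7 partner is Mirlet7c-1, which starts 721 bases after the start of Mir99a, and Mir125b-2 starts 47337 bases after it. Mir100 (ENSMUSG00000093011.1, chr9:41531425-41531504) and Mir125b-1 (ENSMUSG00000093354.1, chr9:41581926-41582002) lie in introns of the noncoding genes 3110039I08Rik and Gm49317. Mir100 also overlaps an exon of Gm48742 on the minus strand, and Mir125b-1 an exon of Gm28119. There, Mirlet7a-2 starts 5291 bases and Mir125b-1 50501 bases after the start of Mir100.

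The third cluster is compact and sits in a protein-coding gene. Mir99b (ENSMUSG00000065396.1, chr17:17830188-17830257) lies in an intron of Spaca6, a gene needed for sperm and egg to fuse, and Mir125a (ENSMUSG00000065479.2, chr17:17830812-17830879) overlaps a Spaca6 exon. The start of Mirlet7e lies 164 bases and that of Mir125a 624 bases after the start of Mir99b. A hairpin annotated on the minus strand, Gm25927, overlaps Mirlet7e and none of the 6 members.

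**Figure D1:**
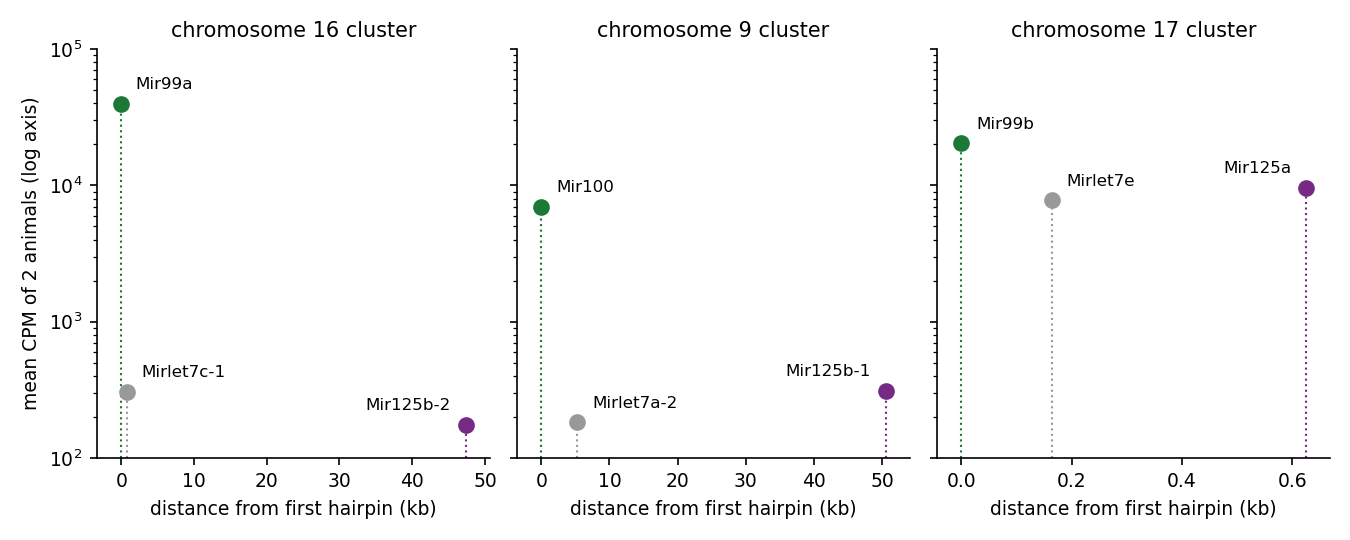
Mean CPM of 2 animals (log axis) against distance from the start of the first hairpin (kb) in each cluster; green is miR-99/100, grey let-7 and purple miR-125, and the distance axis differs between panels. On chromosomes 16 and 9 the miR-99/100 hairpin stands above its partners, whose means are 175 to 310 CPM, while the chromosome 17 hairpins have 20451, 7778 and 9641 CPM.

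The libraries had similar shares of reads on hairpins and differed in their heart muscle microRNAs. Of 6452546 reads in replicate 2, 41.2% were assigned to hairpins, and of 5005996 in replicate 1, 41.0%. CPM is the count of a hairpin on its own strand per 1000000 such counts in the library. Mir208a, the microRNA of the heart muscle myosin gene Myh6, had 5862 CPM in replicate 2 and 1620 CPM in replicate 1. Of the other detected heart muscle hairpins, Mir499 barely differed, with 6167 counts in replicate 2 against 5391 in replicate 1 (log2 ratio 0.05, scaled as described below). Mir208b, at 297 against 391 (-0.54), and Mir1a-2, at 31 against 94 (-1.67), were lower in replicate 2. The list of heart muscle microRNAs had 4 of 7 hairpins with at least 10 counts in both libraries, 0 of 7 at 0 in both, and a summed share of 0.831% of the counts in replicate 2 against 0.449% in replicate 1. Reads matching several places lie outside this share and those below, so a low share does not show that a microRNA was scarce. Markers of other cells also differed between the libraries, with the endothelial Mir126a at 6.10% against 10.8% and 3 erythroid hairpins at 0.0869% against 0.178%. The fibroblast list (3 of 5 detected) held 0.242% against 0.624%, but its hairpins did not move together. Mir214 had 1353 counts in replicate 2 against 8717 in replicate 1 (log2 ratio -2.83). Mir21a had 5064 against 4048 (0.18) and Mir199b 28 against 29 (-0.18). Leukocyte hairpins (5 of 6 detected) held 0.612% against 0.607%, epithelial ones (5 of 7) 0.0370% against 0.0404% and liver and gut ones (5 of 5) 0.0236% against 0.0149%. The close leukocyte and epithelial sums hid opposite moves. The leukocyte Mir155 was lower in replicate 2, at 4344 counts against 6113 (log2 ratio -0.64). Mir150, at 6677 against 2753 (1.13), Mir142, at 765 against 406 (0.76), Mir223 and Mir342 were higher. The epithelial Mir203, at 424 against 117 (1.69), Mir200c and Mir429 were higher. Mir205, at 4 against 238 (-5.36), Mir200b, at 28 against 74 (-1.47), and Mir141 were lower. The liver and gut hairpins did not move together either. Mir122 was higher in replicate 2, at 540 counts against 47 (log2 ratio 3.32). Mir192, at 31 against 68 (-1.22), and Mir194-1, at 21 against 30 (-0.60), were lower in replicate 2. So were Mir194-2, at 17 against 48 (-1.51), and Mir215, at 20 against 113 (-2.50). Of 6 neuronal hairpins, 5 were at 0 in both libraries. The part of these shifts in the differences given below was not tested, and in a whole heart fewer cells of a type and less RNA per cell cannot be told apart.

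Summed, the 6 members took 8.93% of all hairpin counts of replicate 2, against 6.56% of those of replicate 1. The miR-99/100 family supplied most of that. Its share was 8.28% for replicate 2 (Wilson 95% interval from 8.24 to 8.31) and 5.18% for replicate 1 (from 5.15 to 5.21), and averaged 6.73% ± 2.19 (SD, n = 2, as for all means below). The share of the miR-125 family was 0.651% for replicate 2 (from 0.641 to 0.660) and 1.37% for replicate 1 (from 1.36 to 1.39), and averaged 1.01% ± 0.512. The larger family share was thus in replicate 2 for miR-99/100 and in replicate 1 for miR-125. Intervals cover only the counting error of reads within a library, not the spread between libraries. Reads copied by PCR were not separated from independent molecules, so the intervals may be too narrow even for counting error. These shares and the ranks below are of counted reads, which leave out reads matching several places.

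Mir99a was the highest of the 6 in both hearts. It had 140107 counts in replicate 2 and 55488 in replicate 1, or 52650 and 27061 CPM (39856 ± 18094, SD, n = 2). By mean CPM it ranked 8 of all hairpins, between Mirlet7b (51103 CPM) and Mir139 (37155 CPM), and in the single libraries it ranked 7 in replicate 2 and 11 in replicate 1. It made up 63.6% of the miR-99/100 counts in replicate 2 (exact binomial interval 63.4 to 63.8) and 52.2% in replicate 1 (51.9 to 52.5).

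Mir99b was the steadiest of the abundant members. It had 55932 counts in replicate 2 and 40770 in replicate 1, or 21018 and 19883 CPM (20451 ± 803). Its mean ranked 13. It made up 25.4% of the miR-99/100 counts in replicate 2, where Mir99a was higher, and 38.4% in replicate 1.

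Mir100, whose mature microRNA is a single base away from miR-99a, was lower in both hearts. It had 24228 counts in replicate 2 and 9977 in replicate 1, or 9105 and 4866 CPM (6985 ± 2997), and its mean ranked 22. Its share of the miR-99/100 counts was 11.0% in replicate 2 (exact binomial interval 10.9 to 11.1) and 9.39% in replicate 1 (9.22 to 9.57). The hairpins of Mir99a and Mir100 share a run of 16 bases, shorter than the mature microRNA. How reads with a mismatch at the base that differs were assigned is not known, since the aligner is not named.

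Mir125a supplied nearly all counted reads of the miR-125 family. It had 16403 counts in replicate 2 and 26899 in replicate 1, or 6164 and 13118 CPM (9641 ± 4917), and its mean ranked 19. It made up 94.7% of the family in replicate 2 and 95.4% in replicate 1. This share holds for counted reads only, because of the bases that the miR-125b loci have in common.

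The miR-125b loci stood far below the other members. Mir125b-1 reached 487 counts in replicate 2, against 895 in replicate 1, or 183 and 436 CPM (310 ± 179). Mir125b-2 reached 426 counts in replicate 2, against 390 in replicate 1, or 160.1 and 190.2 CPM (175 ± 21.3). By mean they ranked 93 and 114. Both loci together took 0.0343% of the hairpin counts of replicate 2, against 0.0627% of those of replicate 1. Replicate 1 was the higher at both loci by CPM, though Mir125b-2 differed little.

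**Figure D2:**
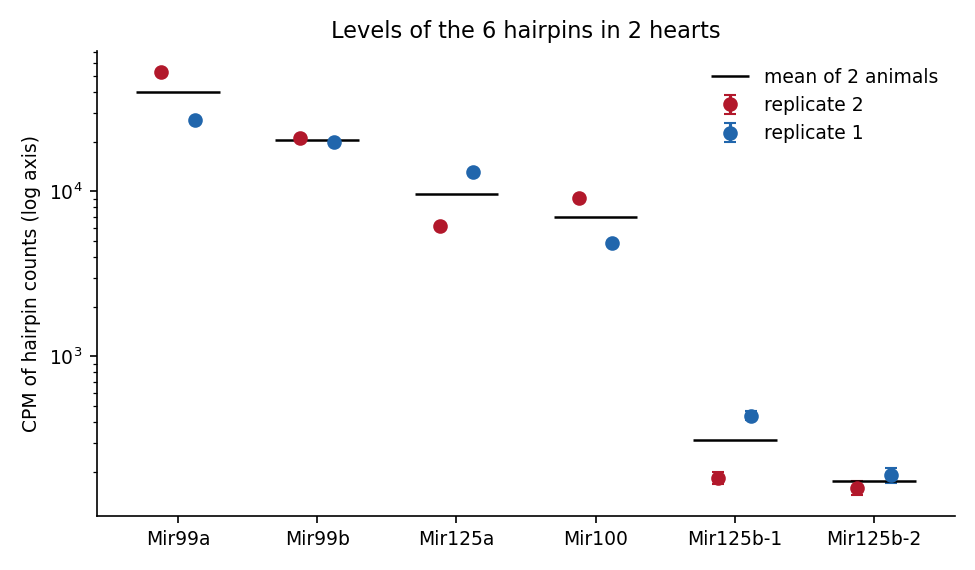
CPM (log axis) of each hairpin, with a point per library, replicate 2 in red and replicate 1 in blue, exact 95% binomial intervals as bars (mostly smaller than the points) and the mean of 2 animals as a line. Mir99a, at 52650 and 27061 CPM, is the highest in both libraries, and Mir125b-1 and Mir125b-2 lie between 160.1 and 436 CPM.

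The order of the 6 levels was clear at the top and uncertain lower down. Mir99a exceeded Mir99b, and Mir99b exceeded Mir125a, in both libraries with no overlap of their ranges. Mir125a and Mir100 changed places: Mir100 was the higher in replicate 2 (9105 against 6164 CPM) and Mir125a in replicate 1 (13118 against 4866 CPM), so their means did not differ beyond the spread. Mir100 was above Mir125b-1 in both libraries, 22.6-fold by the means. Mir125b-1 was above Mir125b-2 in both libraries, but their ranges overlapped. Among all hairpins by mean CPM, Mir99b lay between Mir22 (25685 CPM) and Mirlet7d (20429 CPM), and Mir125a between Mir30a (10063 CPM) and Mir652 (7888 CPM). Mir100 lay between Mirlet7e (7778 CPM) and Mir30e (5994 CPM). Mir125b-1 lay between Mir30c-1 (330.1 CPM) and Mirlet7c-1 (305 CPM), and Mir125b-2 between Mir200c (178 CPM) and Mir223 (172 CPM).

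The let-7 partners split along the same line as the miR-125 hairpins. Mirlet7e, the partner of Mir99b and Mir125a, had 7385 CPM in replicate 2 and 8170 CPM in replicate 1. Mirlet7c-1 had 184 and 426 CPM, and Mirlet7a-2 had 116 and 248 CPM. Of the 9 hairpins of the clusters, 4 share a run of 23 or 24 bases with another hairpin: Mir125b-1, Mir125b-2, Mirlet7c-1 and Mirlet7a-2. These 4 lay between 116 and 436 CPM in both libraries. The other 5 share at most 17 bases with any hairpin and lay between 4866 and 52650 CPM. What this sharing contributed to the low values was not tested.

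Within each cluster the miR-99/100 hairpin had more counts than the miR-125 hairpin, in both hearts. On chromosome 17, the only cluster in which both hairpins have a mature 5p sequence of their own, Mir99b made up 77.3% of Mir99b plus Mir125a in replicate 2 (exact binomial interval 77.0 to 77.6) and 60.2% in replicate 1 (59.9 to 60.6). The ratio of Mir99b to Mir125a counts was 3.41 in replicate 2 and 1.52 in replicate 1. These ratios are taken within a library and do not depend on scaling, and the intervals of the libraries did not overlap.

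The other clusters leaned further to miR-99/100. Mir100 made up 98.0% of Mir100 plus Mir125b-1 in replicate 2 (97.8 to 98.2) and 91.8% in replicate 1 (91.2 to 92.3). Mir99a made up 99.7% of Mir99a plus Mir125b-2 in replicate 2 (99.67 to 99.72) and 99.3% in replicate 1 (99.2 to 99.4). Where the reads that fit both miR-125b loci were counted is not stated, so these shares hold for counted reads only. In all 3 clusters the miR-99/100 share was larger in replicate 2.

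**Figure D3:**
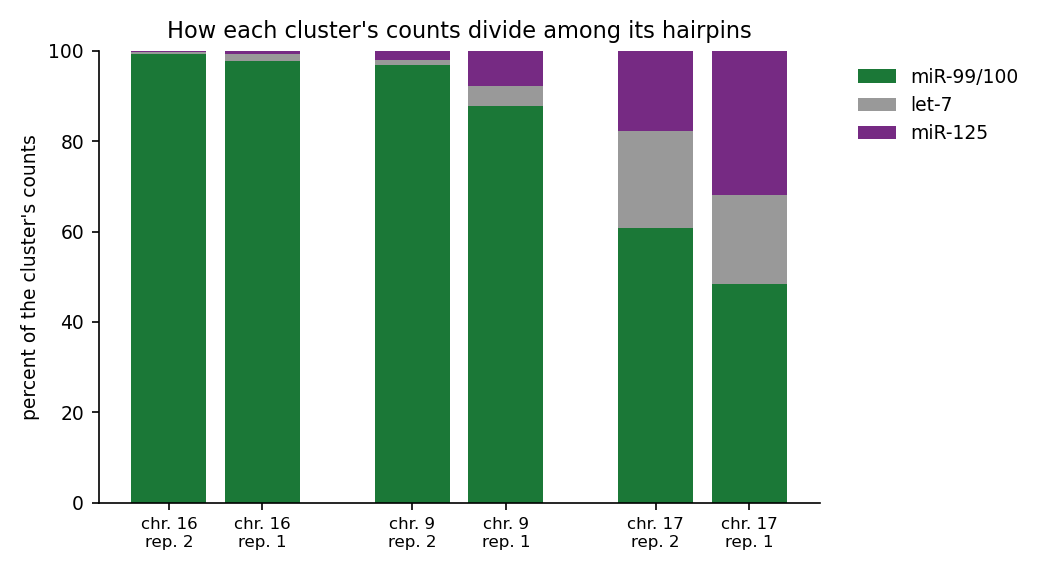
Percent of the counts of each cluster (y axis) that fell on its miR-99/100 (green), let-7 (grey) and miR-125 (purple) hairpin, with replicate 2 left of replicate 1 in each pair of bars. On chromosome 17 the miR-99/100 part is 60.8% in replicate 2 and 48.3% in replicate 1, and the miR-125 part 17.8% and 31.9%; on chromosomes 16 and 9 miR-99/100 fills 87.7% or more.

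The comparison of the libraries asked how far the members varied between hearts of the same strain, sex and age. Ratios are of replicate 2 over replicate 1, on CPM scaled by TMM (a factor that centres most hairpins) plus 1. The exact two-sided binomial test compares these libraries over counting error only, with adjustment over the 326 hairpins that had at least 10 counts in at least 1 library. It called 5 of the 6 members, 3 higher and 2 lower in replicate 2. Of all tested hairpins it called 204, or 62.6%, with 36.2% higher and 26.4% lower, so being called does not set a member apart. The median size of the log2 ratio, without its sign, was 0.94 for the 6 members and 0.56 for all tested hairpins.

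All 3 hairpins of the miR-99/100 family were higher in replicate 2. Mir99a had a log2 ratio of 1.19, above 90.0% of the tested hairpins, and minus log10 of its adjusted exact binomial p was 6470.3. Mir100 had a log2 ratio of 1.13, with a minus log10 of the adjusted exact binomial p of 1036. Mir99b differed less, with a log2 ratio of 0.31 (adjusted exact binomial p = 1.6e-240). Scaled by total count, which moved the median of all tested hairpins to -0.14, against 0.09 with TMM, the ratios of Mir99a, Mir100 and Mir99b were 0.96, 0.90 and 0.08.

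Of the miR-125 family, 2 hairpins were lower in replicate 2 and the third did not pass the test. Mir125a had a log2 ratio of -0.86, with a minus log10 of the adjusted exact binomial p of 813. Mir125b-1 had -1.02 (adjusted exact binomial p = 2.41e-37). Mir125b-2 had -0.02 (adjusted exact binomial p = 0.885), although scaling by total count gave -0.25 and a call. The cluster partners thus went opposite ways for Mir99b and Mir125a and for Mir100 and Mir125b-1.

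The binomial test leaves out any spread beyond counting error. The coefficient of variation beyond counting error, estimated by edgeR from all tested hairpins, was 0.467. It comes from the same difference between 2 libraries that is then tested, which may be partly technical, so the test based on it can pass very few hairpins and does not show that a member did not differ. With that spread as the dispersion, edgeR's exact test called 1 hairpin of 326 (0.307%) and 0 of the 6 members, each with an adjusted exact test p of 1, and 18 hairpins had an unadjusted p under 0.05. The unadjusted p of that exact test was 0.230 for Mir99a, 0.252 for Mir100, 0.303 for Mir125b-1, 0.383 for Mir125a, 0.751 for Mir99b and 0.989 for Mir125b-2. With 2 samples, no exact two-sided permutation p below 0.5 can be reached.

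**Figure D4:**
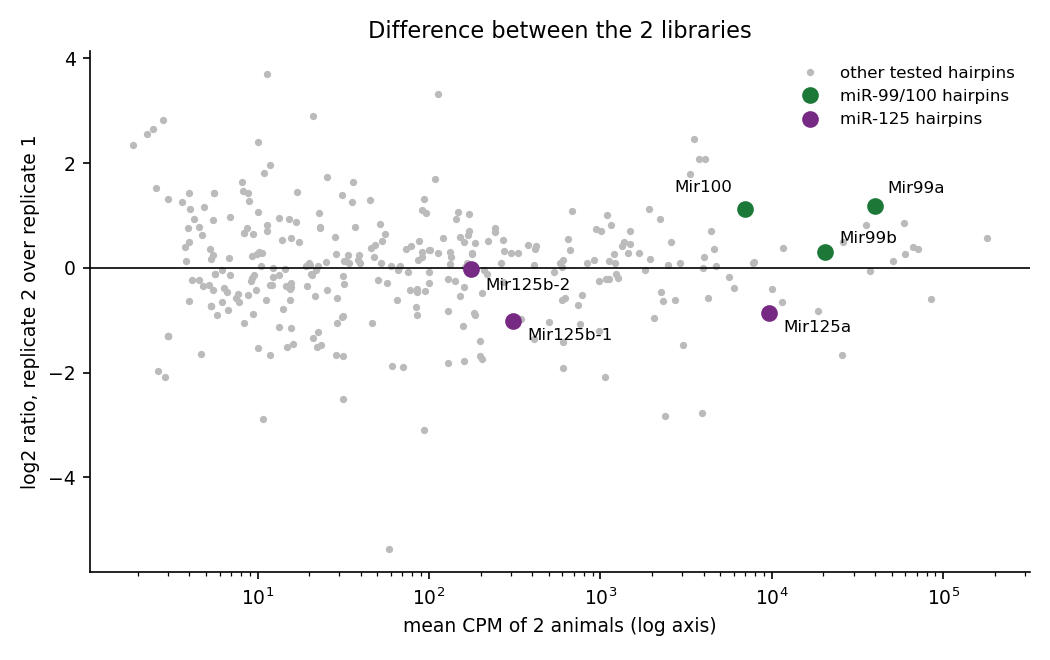
Log2 ratio of replicate 2 over replicate 1 (TMM-scaled) against mean CPM (log axis) for 326 tested hairpins, with miR-99/100 hairpins in green, miR-125 hairpins in purple and all others in grey. The green points lie at 1.19, 1.13 and 0.31, and the purple points at -0.02, -0.86 and -1.02, within the range of the grey points.

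By likeness between the libraries, Mir100 was the hairpin nearest to Mir99a. Among 164 other hairpins with at least 100 counts in both libraries, its log2 ratio was 0.06 away from that of Mir99a. Mir150, a lymphocyte microRNA with 6677 counts in replicate 2 and 2753 in replicate 1, was also 0.06 away. Mir450b, from an X-linked microRNA cluster, was 0.09 away, with 313 counts in replicate 2 and 131 in replicate 1. Likeness over 2 libraries is a weak measure and is given as a description.

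The miR-10 family resembles miR-99/100 in sequence with the seed altered. Its 5p microRNAs are shown to set beside those above, with seeds in capitals.
miR-10a-5p: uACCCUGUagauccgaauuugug
miR-10b-5p: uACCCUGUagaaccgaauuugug

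miR-10a-5p shares a run of 11 bases with miR-100-5p and 10 with miR-99a-5p, and miR-10b-5p shares 10 with miR-99b-5p. Mir10a, which lies among the Hox genes, had 1166 CPM in replicate 2 and 837 CPM in replicate 1. Mir10b, also a Hox cluster microRNA, had 886 and 487 CPM. Both were below Mir99a, Mir99b and Mir100 in each library. Their log2 ratios were 0.71 for Mir10a (adjusted exact binomial p = 3.72e-61) and 1.09 for Mir10b (adjusted exact binomial p = 2.12e-96).

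RefSeq held no other mature microRNA with the miR-99/100 seed among hairpins outside the family, and 3 with the miR-125 seed, those of Mir351, Mir6367 and Mir6394. Mir6367 and Mir6394 had 0 counts in both libraries, which allows up to 1.13 CPM in replicate 2 and 1.46 CPM in replicate 1, the level of 3 counts. Mir351 is the mouse microRNA usually grouped with miR-125, and its longest run in common with miR-125a-5p is 8 bases, the first base and the seed, with 10 identical positions in all. Its sequence is shown because it carries this seed in the heart at a countable level, with the seed in capitals.
miR-351-5p: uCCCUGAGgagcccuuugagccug

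Mir351 had 13281 counts in replicate 2 and 3462 in replicate 1, or 4991 and 1688 CPM. In replicate 2 it stood close to Mir125a (6164 CPM), and in replicate 1 it was far below it (13118 CPM). Its log2 ratio was 1.79, with a minus log10 of the adjusted exact binomial p of 1129 and an adjusted p of 0.919 by edgeR's exact test once the spread between the libraries was included. Mir351 and Mir125a therefore differed in opposite directions between these libraries.

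The let-7 partners of Mir99a and Mir100 went the other way from them, while Mirlet7e was called in the same direction as Mir99b. Mirlet7c-1 had a log2 ratio of -0.98 (adjusted exact binomial p = 5.19e-34) and Mirlet7a-2 of -0.86 (adjusted exact binomial p = 9.48e-17). Mirlet7e had 0.08 (adjusted exact binomial p = 7.06e-08), although its CPM over library sums was lower in replicate 2, at 7385 against 8170. In the clusters on chromosomes 16 and 9, the miR-99/100 hairpin was higher in replicate 2 and the let-7 hairpin lower.

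When strand was ignored, all 6 members kept every count, and the opposite strand held 0 reads at each of them. Mirlet7e, with its partner on the minus strand, stood at 0 in the column of counts from either strand.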

How the data were processed

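Per the file headers of the notes deposited beside the tables, the authors used mm10 with GENCODE M21, and each table gives a raw count per hairpin for either strand, the hairpin's strand and the opposite one. No source used here names the aligner or counter. All 2202 identifiers matched GENCODE M21. The column for the hairpin's strand was used. Totals leave out the rows that name no hairpin: reads with several matches (41.6% of replicate 2 and 38.5% of replicate 1), unmapped reads (11.5% and 14.1%) and reads outside hairpins (5.64% and 6.48%).

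Levels are CPM over hairpin sums, with exact binomial or Wilson 95% intervals. Library comparison used TMM factors (edgeR 4.0.16, R 4.3.3), a pseudocount of 1 CPM and exact binomial tests (scipy 1.17.1) with Benjamini-Hochberg adjustment and a threshold of 0.05. The binomial comparison was tried on simulated libraries that had no spread beyond counting error, so that trial does not cover the spread in these data. P-values too small to write are given as minus log10. Alternatives were DESeq2 1.42.0 size factors, other totals, filters and pseudocounts, and edgeR's exact test with the common dispersion. Every test compares these libraries, not conditions. Sequences are from RefSeq, and shared runs from GENCODE M21 hairpins. Named hairpins were the members, their let-7 partners, the miR-10 family, hairpins with a member's seed, neighbours of a member in level and the 3 nearest to Mir99a in log2 ratio. Members and lists were chosen with earlier results of these data known.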

Additional observations from a re-analysis of the deposited data

Results flagged for a closer look

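Reads matching several places numbered 2686901 in replicate 2 and 1925044 in replicate 1. They lie outside the hairpin counts and were listed only because they exceed the 3 counts that a count of 0 allows. Their part in the low counts of Mir125b-1 and Mir125b-2 was not tested.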

How the results depend on the processing

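With 2 animals and no second group, the spread rests on a single difference, and arms and shared loci were not separated. The family shares, 6.73% for miR-99/100 and 1.01% for miR-125, were 22.1% and 3.13% of a total without the 10 highest hairpins, which include Mir99a, and 2.77% and 0.416% of all reads. The miR-99/100 share was 9.51% of the unstranded counts. Leaving out each replicate gave 5.18% to 8.28% and 0.651% to 1.37%. The miR-99/100 share was the larger under each of these. With the pairs of chromosomes 16 and 9 summed, since their miR-125b loci share sequence, the miR-99/100 share was 98.8% in place of 99.5% for chromosome 16 alone. This sum pools counted reads only, so it cannot show how the share depends on reads that fit both loci and may lie outside the counts.

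The number of hairpins called higher, 118, was 76 by total count, 74 with at least 50 counts, 65 with at least 1.5-fold and 0 by edgeR's exact test with the common dispersion, which called 1 lower in place of 86. For the members that test called 0 higher and 0 lower, in place of 3 and 2, and a minimum of 1.5-fold left 2 and 2, without Mir99b. The log2 ratios of Mir99a, Mir99b, Mir100, Mir125a and Mir125b-1 kept their sign and their binomial call in the 6 alternatives of column, scaling and filter, with Mir99b lowest at 0.08 by total count, in place of 0.31, and that of Mir125b-2 was called under scaling by total count only. No paired analysis was possible because there is 1 group.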
